A study of Homo sapiens with 25 samples.

Results

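The chromatin of 6 genes for granulocyte adhesion and chemotaxis receptors was followed in NB4 cells: ITGAM, ITGAX, ITGB2, CSF3R, FPR1 and FPR2. They were taken through 4 windows fixed on the hg18 build, and every called peak that overlapped a window was kept. The windows were chr16:31160001-31320000 for ITGAM and ITGAX (160 kb), chr21:45100001-45200000 for ITGB2 (100 kb), chr1:36690001-36740000 for CSF3R (50 kb) and chr19:56920001-56980000 for FPR1 and FPR2 (60 kb). In all, 689 of the 918840 peaks of 23 lists fell in them. NB4, a human line long kept in culture, comes from an acute promyelocytic leukemia and matures toward granulocytes when given retinoic acid (RA). Each treatment lasted 24 h, and cells received the solvent DMSO, the LSD1 inhibitor MC_2580, RA at 0.01 µM, RA at 1 µM, or MC_2580 together with RA at 0.01 µM, which is named the combination here. Chromatin immunoprecipitation with sequencing (ChIP-seq) for H3K4me1, H3K4me2, H3K4me3 and H3K27ac covered all 5 conditions, LSD1 was mapped in DMSO and MC_2580, and GFI1 in untreated cells. For the H3K4me3 combination library the title gives the higher RA dose and the treatment field the lower dose, and the treatment field was followed.

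ITGAM (CD11b) and ITGAX (CD11c) encode integrin alpha chains that pair with the beta chain encoded by ITGB2 (CD18), and the pairs let granulocytes and monocytes adhere, cross vessel walls and take up coated particles. CSF3R encodes the receptor for G-CSF, the cytokine that drives granulocyte production. FPR1 and FPR2 are neighbouring genes for formyl peptide receptors, G protein-coupled receptors that steer neutrophils toward bacterial and mitochondrial peptides. CD11b on the surface is a common readout of granulocytic maturation in this leukemia. LSD1 (KDM1A) removes methyl groups from H3K4me1 and H3K4me2, and GFI1 is a transcriptional repressor of myeloid cells that recruits it. H3K4me3 is found mostly at promoters, H3K4me1 and H3K4me2 also at enhancers, and H3K27ac at elements of either kind that are in use.

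The letters upstream of 4 of the genes are shown because GFI1, which recruits LSD1, binds sites with the core AATC, and each window had LSD1 peaks. They are the 250 bases before the outermost annotated start in RefSeq on GRCh38.p14, which is another build than that of the peaks, so no peak was placed on them. ITGAX and ITGB2 had no entry. The stretch of ITGAM is chr16:31259725-31259974 on the plus strand, that of CSF3R chr1:36483315-36483564 on the minus strand, that of FPR1 chr19:51751879-51752128 on the minus strand and that of FPR2 chr19:51760930-51761179 on the plus strand. Capitals mark AATC or its reverse complement GATT.
ITGAM: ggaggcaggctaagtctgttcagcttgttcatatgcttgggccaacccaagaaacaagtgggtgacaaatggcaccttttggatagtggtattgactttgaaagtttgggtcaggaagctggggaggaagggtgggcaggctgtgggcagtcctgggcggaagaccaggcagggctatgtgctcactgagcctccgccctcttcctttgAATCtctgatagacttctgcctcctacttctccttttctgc
CSF3R: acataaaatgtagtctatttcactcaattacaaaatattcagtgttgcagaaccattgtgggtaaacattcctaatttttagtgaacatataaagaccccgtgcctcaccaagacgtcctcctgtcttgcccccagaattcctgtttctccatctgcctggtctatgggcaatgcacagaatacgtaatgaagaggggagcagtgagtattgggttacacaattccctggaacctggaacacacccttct
FPR1: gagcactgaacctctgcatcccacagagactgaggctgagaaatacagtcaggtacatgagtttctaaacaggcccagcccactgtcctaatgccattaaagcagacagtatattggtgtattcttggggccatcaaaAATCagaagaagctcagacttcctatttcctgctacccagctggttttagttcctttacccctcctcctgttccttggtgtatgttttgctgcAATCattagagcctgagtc
FPR2: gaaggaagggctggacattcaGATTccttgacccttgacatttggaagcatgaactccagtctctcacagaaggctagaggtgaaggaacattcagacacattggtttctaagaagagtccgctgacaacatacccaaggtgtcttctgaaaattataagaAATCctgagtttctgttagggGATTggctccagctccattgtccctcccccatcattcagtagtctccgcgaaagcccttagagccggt
The core occurred 1 time upstream of ITGAM, 2 times upstream of FPR1 and 3 times upstream of FPR2, and 0 times upstream of CSF3R at this start. A second annotated start, not shown, had 2 for CSF3R and 1 for FPR2. On either strand, 64.8% of the 35116 upstream windows in the table hold AATC, so its presence is common. The PU.1-type ETS core GAGGAA (either strand, 23.6% of all windows, overlap with AATC allowed) occurred 1 time upstream of ITGAM and at none of the other 3 printed starts. The retinoid receptor motif AGGTCA (either strand, 12.1% of all windows) was in none of the 4. These matches describe letters and say nothing on binding.

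With a single library for every antibody in every condition, no difference could be set against a replicate spread. No test was made, and all values describe these libraries. The lists held 12562 to 72810 peaks, and their lengths differed between conditions: H3K27ac covered 1.56 times the DMSO bases genome-wide with RA at 0.01 µM and 0.748 times with MC_2580, and H3K4me3 covered 1.32 to 1.57 times the DMSO bases in the 4 treatments. The depth of the libraries is unknown, and values in the windows are read beside these whole-list ratios. The score of a peak is the authors' value, and peaks were ranked by it only within a list. Across lists it served for minimum scores of 100 and, for LSD1, 357. LSD1 scores of DMSO were also set beside the lowest score of the MC_2580 list. Gene positions on hg18 were not used here, so a peak is given by its position and not tied to a start site, and some peaks of a window may belong to a neighbouring gene.

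The largest fold over DMSO in covered bases of H3K27ac, among the 4 windows and 4 treatments, was at FPR1 and FPR2. In the FPR1 and FPR2 window, H3K27ac peaks covered 2.59 kb in DMSO, 1.25 kb with MC_2580, 4.81 kb with RA at 0.01 µM, 7.35 kb with RA at 1 µM and 27.1 kb in the combination. The combination library stood apart from the other 4, with 45.2% of the window covered against 2.08 to 12.3%. Its covered bases were 10.5 times those of DMSO, 5.63 times those of RA at 0.01 µM, 3.69 times those of RA at 1 µM and 21.7 times those of MC_2580, where the whole lists gave 1.17, 0.748, 1.05 and 1.57. The fold over DMSO depended on the edges of the window and was 5.17 when these were moved out by 20 kb, and it was 16.2 with a minimum score of 100. In the wider window the combination was 3.09 times RA at 0.01 µM, 3.85 times RA at 1 µM and 4.46 times MC_2580, whose H3K27ac in the narrower window was 1 peak of 1371 bases. The fold of RA at 1 µM, 2.84, was 1.34 in the wider window, and that of MC_2580, 0.483, was 1.16. The RA doses in the combination and in RA at 1 µM differ, so their values stand side by side.

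**Figure D1:**
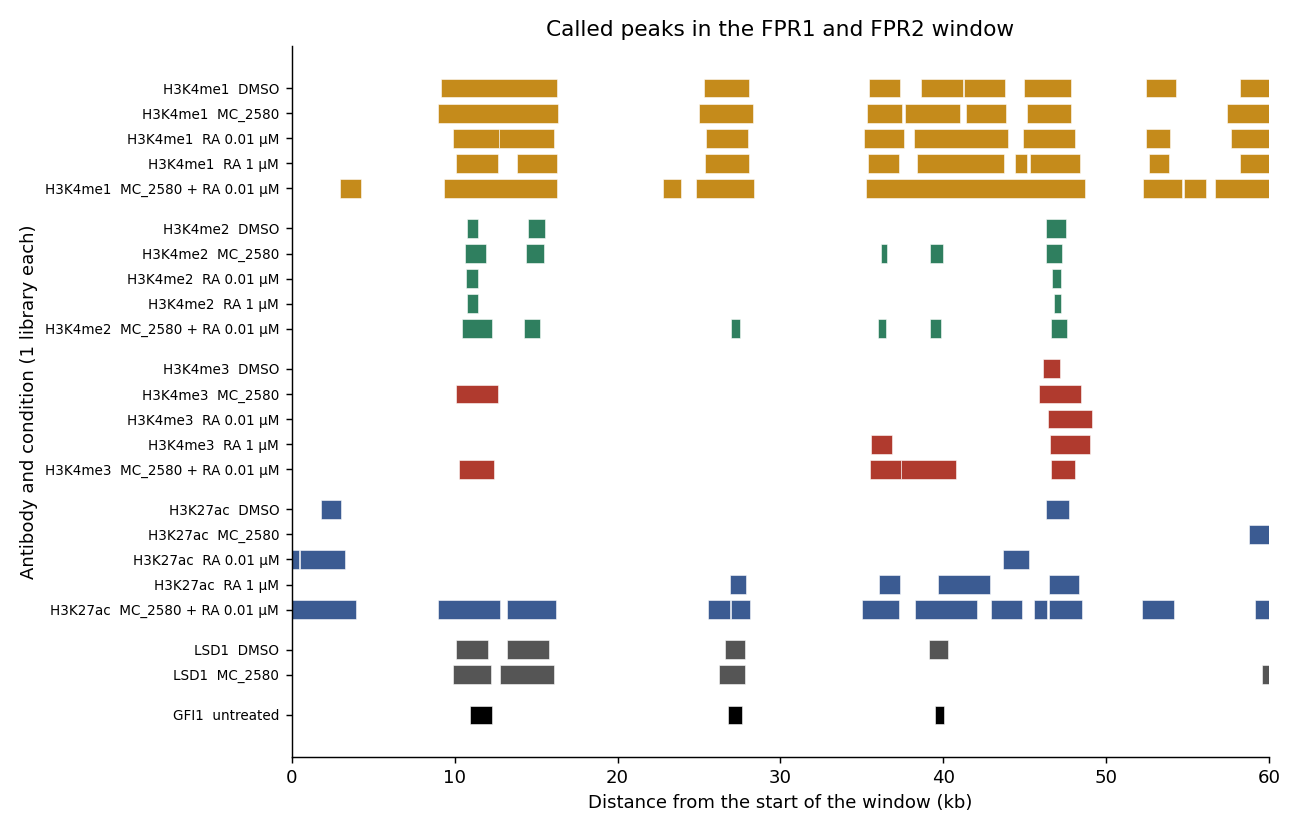
Called peaks of the 23 lists (rows, grouped by antibody) along the FPR1 and FPR2 window, with the distance from its start in kb on the x axis and each bar 1 peak, cut at the window's edges. H3K27ac bars are 12 in the combination and 1 to 4 in the other conditions, while most H3K4me1 bars recur at the same places in all 5.

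There were 12 H3K27ac peaks in the combination, against 2 in DMSO, 1 with MC_2580, 3 with RA at 0.01 µM and 4 at 1 µM RA. Of the 12, 8 had no DMSO counterpart, as had 37.1% of the whole list. The widest 4 were chr19:56979109-56985473 (6365 bases, running past the window), chr19:56919144-56923944 (4801 bases), chr19:56958249-56962088 (3840 bases) and chr19:56929002-56932788 (3787 bases). With the 5 lists merged, the window had 10 H3K27ac regions and 0 of them was called in every condition. It was 6 of 15 at ITGAM and ITGAX, 4 of 14 at ITGB2 and 2 of 6 at CSF3R. No such share was made for the whole lists. Regions chr19:56929002-56932788, chr19:56933195-56936211 and chr19:56972184-56974168 were called in the combination and in no other H3K27ac list. RA at 1 µM shared with the combination the 3 regions chr19:56945577-56948154, chr19:56954986-56957362 and chr19:56958249-56962894, which DMSO, MC_2580 and RA at 0.01 µM lacked. Its peaks there scored 52.29, 73.1 and 163.93 in that order, and the lowest score of its list was 50.0. The highest-scoring H3K27ac peak of the window lay at nearly the same place in DMSO (chr19:56966315-56967729), RA at 1 µM (chr19:56966469-56968329) and the combination (chr19:56966506-56968530).

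H3K4me3 in the FPR1 and FPR2 window covered 1.07 kb in DMSO, 5.16 kb with MC_2580, 2.70 kb with RA at 0.01 µM, 3.74 kb with RA at 1 µM and 8.84 kb in the combination. All 4 treated libraries thus lay above DMSO, at 4.84, 2.54, 3.51 and 8.30 times its bases, and the combination was highest. The DMSO value was 1 peak with a score of 98.97, so all of these folds rest on that peak. With a minimum score of 100 it drops out, and no fold over DMSO can be given. A peak near chr19:56966126-56967191 was called in all 5 lists and was 1066 bases wide in DMSO and 1423 to 2704 bases in the treatments. A second place, chr19:56930085-56932653, was called with MC_2580 and in the combination, the conditions that contain the inhibitor, and another, chr19:56955524-56957398, with RA at 1 µM and in the combination. The MC_2580 peak at the former scored 95.19 and the RA at 1 µM peak at the latter 74.44, both under 100. An H3K4me3 peak at chr19:56957404-56960795 was called in the combination alone. With lists of equal length the folds were 2.43 for MC_2580 and 2.26 for RA at 1 µM, and with the window widened by 20 kb that of the combination was 4.97.

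H3K4me2 at FPR1 and FPR2 covered 2.98 kb in DMSO, 4.55 kb with MC_2580, 1.31 kb with RA at 0.01 µM, 1.09 kb with RA at 1 µM and 5.44 kb in the combination. The inhibitor-containing libraries were above DMSO and both RA libraries were below it, by 2.28 and 2.74 times. A 2-fold lower H3K4me2 coverage in a 100 kb stretch was also found in 9.80% of the stretches with RA at 0.01 µM and in 11.8% at the higher dose. Stretches covered in DMSO alone count among these, so the shares are not a like background. The H3K4me2 values of the RA libraries and DMSO rest on 2 and 3 peaks, and with a minimum score of 100 the ratio for RA at 0.01 µM was 0.680. H3K4me2 peaks at chr19:56955971-56956560 and chr19:56959206-56959960 were called with MC_2580 and the combination and in no RA-only or DMSO list. They scored 67.49 and 77.65 with MC_2580, both under 100, and 136.27 and 76.77 in the combination. H3K4me1, by contrast, was broad in every condition: it covered 23.4 kb in DMSO, 24.1 kb with MC_2580, 24.0 kb and 21.8 kb with RA at 0.01 and 1 µM, and 33.2 kb in the combination. In that last library a 13443-base H3K4me1 peak at chr19:56955240-56968682 lay where the other 4 lists had 3 or 4 shorter peaks.

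LSD1 had 4 peaks in the FPR1 and FPR2 window in DMSO, and GFI1 lay on 3 of them, against 56.8% of all LSD1 peaks of DMSO. The strongest was chr19:56930081-56932016, 1936 bases wide with a score of 1056.15, which is the highest of the 17 LSD1 peaks of DMSO in the 4 windows. The GFI1 peak on it, chr19:56930959-56932286, was likewise the highest-scoring of the 8 GFI1 peaks, at 332.8. None of the 4 LSD1 sites carried an H3K27ac peak in DMSO, with MC_2580 or with RA at 0.01 µM, 2 carried it with RA at 1 µM, and all 4 carried it in the combination. With RA at 1 µM, the H3K27ac peak on the site chr19:56946581-56947802 scored 52.29, near the lowest score of its list, 50.0. In the other 3 windows, 12 of 13 LSD1 sites already had H3K27ac in DMSO. Over all LSD1 peaks of DMSO, 78.6% had H3K27ac in DMSO, 73.9% with MC_2580, 78.4% with RA at 0.01 µM, 79.1% at 1 µM RA and 84.8% in the combination. With MC_2580, 3 of the 4 LSD1 sites were called again, the peak at chr19:56959121-56960310 was not, and a peak at chr19:56979550-56980983 was called in addition. Of all LSD1 peaks of DMSO, 7.79% were not called again. The peak not called again scored 281.09 in DMSO, and the lowest score kept in the MC_2580 list was 357. The DMSO peak at chr19:56946581-56947802 scored 295.9, also under 357, and was called again. Why the former peak was not called again was not tested.

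ITGAM and ITGAX had more bases under H3K4me3 peaks in every treatment than in DMSO. In their window H3K4me3 covered 9.44 kb in DMSO, 19.0 kb with MC_2580, 24.5 kb with RA at 0.01 µM, 22.5 kb with RA at 1 µM and 23.9 kb in the combination. All treated libraries lay above DMSO, at 2.01, 2.59, 2.38 and 2.54 times its covered bases, where the whole lists gave 1.57, 1.50, 1.33 and 1.32. At least 2-fold higher H3K4me3 was thus found in 2 of the 4 windows, those of ITGAM and ITGAX and of FPR1 and FPR2, in each of the 4 treatments. The same was true of 33.6% of 100 kb stretches with MC_2580, 28.3% with RA at 0.01 µM, 21.5% at 1 µM RA and 21.4% in the combination. Such a rise was thus common over all stretches. Stretches without DMSO bases count among these, whereas both windows had H3K4me3 in DMSO, so the shares are not a like background. At FPR1 and FPR2 the DMSO value was 1 peak of 1066 bases. For MC_2580 the ITGAM and ITGAX value divided by the whole-list ratio was 1.27.

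**Figure D2:**
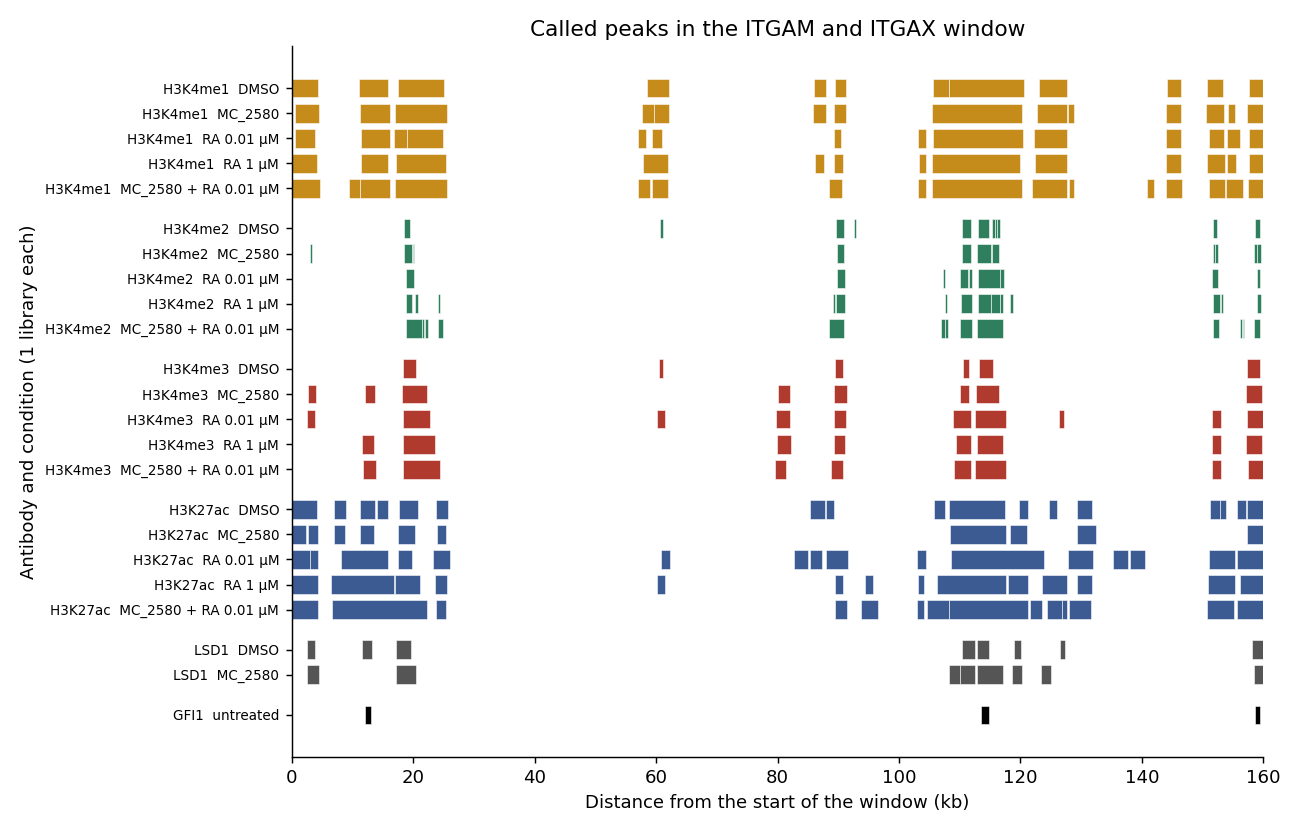
Called peaks of the 23 lists (rows, grouped by antibody) along the ITGAM and ITGAX window, with the distance from its start in kb on the x axis and each bar 1 peak, cut at the window's edges. The H3K4me3 bars that begin near 18 kb and near 113 kb are 2019 and 2486 bases wide in DMSO and longer in all 4 treatments.

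The wider H3K4me3 of the ITGAM and ITGAX window lay in part at a pair of places where DMSO already had a peak. At chr16:31178373-31180391 the DMSO peak was 2019 bases wide, and the peaks there were 4086 bases with MC_2580, 4601 with RA at 0.01 µM, 5374 at 1 µM RA and 6094 in the combination. Their starts lay close together, and their ends ranged from 31180391 in DMSO to 31184366 in the combination. At chr16:31273061-31275546 the width went from 2486 bases in DMSO to 3760 with MC_2580, 5006 with RA at 0.01 µM, 4349 at 1 µM RA and 5040 in the combination. Both places had H3K4me1, H3K4me2 and H3K27ac peaks in all 5 conditions. Further H3K4me3 regions were absent in DMSO: chr16:31239575-31242170 was called in all 4 treatments, and chr16:31311512-31313117 in the 3 that contain RA.

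H3K4me2 in the ITGAM and ITGAX window covered 9.36 kb in DMSO, 9.89 kb with MC_2580, 10.8 kb and 11.9 kb with RA at 0.01 and 1 µM, and 16.9 kb in the combination. The combination was highest, at 1.81 times DMSO against 1.08 for its whole list. In the second of the H3K4me3 places the widest H3K4me2 peak was 1949 bases in DMSO and 4285 in the combination. H3K4me1 covered 51.0 to 61.4 kb, with 10 of 15 regions called in every condition, a share that was not made for the whole lists. H3K27ac covered 42.7 kb in DMSO, 29.8 kb with MC_2580, 61.4 kb with RA at 0.01 µM, 55.4 kb with RA at 1 µM and 62.1 kb in the combination. MC_2580 alone was below DMSO and the 3 RA-containing libraries were above it. In the order above, the treated libraries had 0.697, 1.44, 1.30 and 1.46 times the DMSO bases. Their whole lists gave 0.748, 1.56, 1.12 and 1.17. At the left end of the window, separate H3K27ac peaks of DMSO were replaced in the combination by a 15560-base peak, chr16:31166658-31182217, and with RA at 1 µM by a 10445-base peak, chr16:31166457-31176901. H3K27ac at chr16:31262896-31264426 and H3K4me1 at chr16:31263068-31264400 were called at both RA doses and in the combination, while DMSO and MC_2580 lacked them. Divided by the whole-list ratio, the H3K27ac fold of RA at 0.01 µM, 1.44, was 0.919.

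ITGB2, the gene of the shared beta chain, lay in a densely marked window. H3K4me1 covered 49.2 to 62.0% of it in every condition, and DMSO had a block of 27186 bases, chr21:45151165-45178350, wider than 99.80% of the H3K4me1 peaks of its list. A block of 27541 to 29799 bases lay there with MC_2580, RA at 1 µM and the combination, and RA at 0.01 µM had a pair of adjoining peaks. H3K4me2 covered 21.6 kb in DMSO, 25.5 kb with MC_2580, 30.4 kb with RA at 0.01 µM, 34.8 kb with RA at 1 µM and 37.7 kb in the combination. All treatments were above DMSO, at 1.18, 1.40, 1.61 and 1.74 times its bases against 1.05, 0.937, 0.919 and 1.08 for the whole lists. None of the 12 DMSO peaks of H3K4me2 was lost in any treatment, and 6, 6, 17 and 13 peaks were gained, in the same order. The treated lists had 17, 19, 28 and 23 H3K4me2 peaks here, and over the whole lists 22.3, 14.3, 22.1 and 23.2% of peaks were gained and 11.0, 19.7, 19.5 and 14.4% of DMSO peaks lost. The 17 gained with RA at 1 µM were 186 to 2393 bases wide, with a median of 446. Many lie close to other peaks. Over the 4 windows, with peaks within 1 kb joined, 29.2% were gained with RA at 1 µM and 29.6% in the combination. The whole lists so treated gave 19.1 and 20.2%, inside the intervals of these shares.

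**Figure D3:**
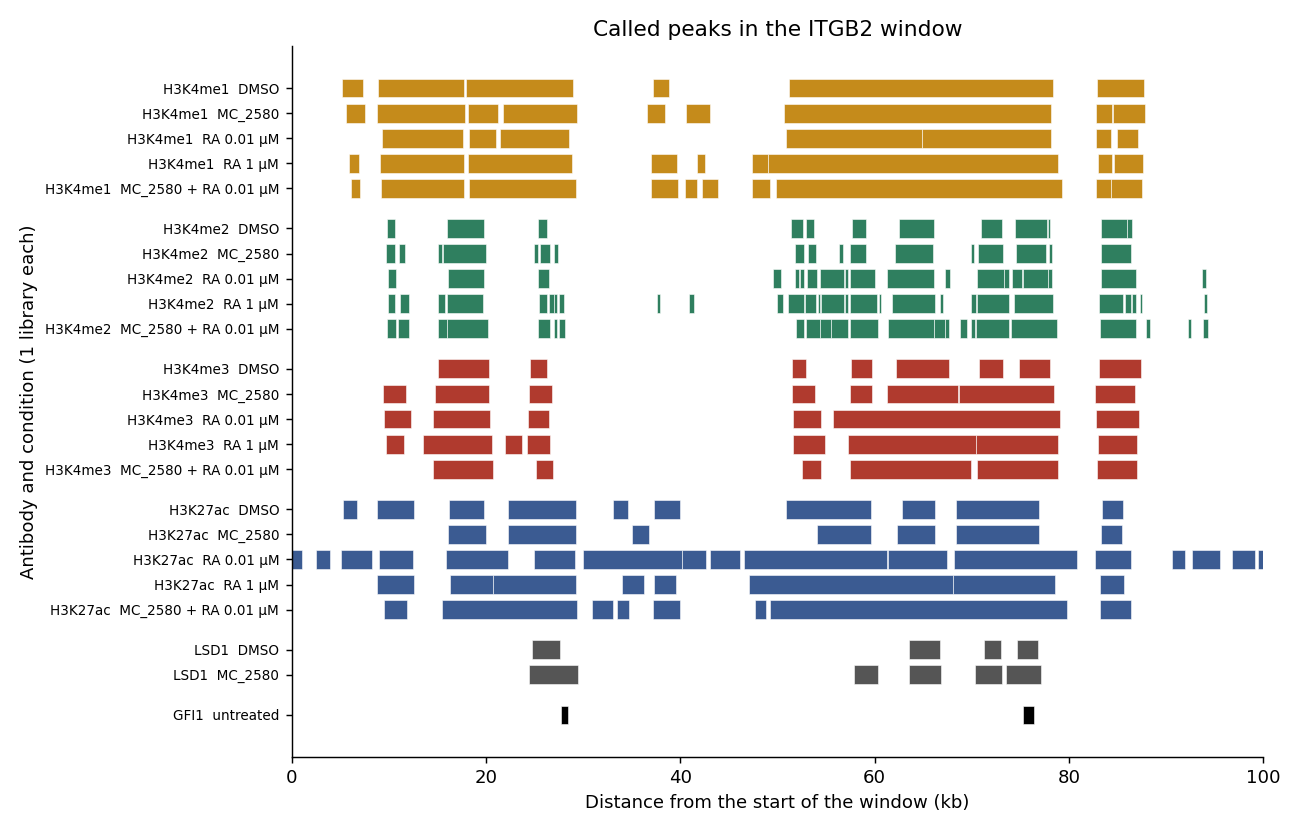
Called peaks of the 23 lists (rows, grouped by antibody) along the ITGB2 window, with the distance from its start in kb on the x axis and each bar 1 peak, cut at the window's edges. Between about 50 and 80 kb, separate H3K4me3 and H3K27ac bars in DMSO give way to longer bars in the RA-containing conditions, up to 23315 bases for H3K4me3 and 30573 bases for H3K27ac. The widest H3K4me3 bar is also longer with MC_2580 (9832 bases) than in DMSO (5474 bases).

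The widest H3K4me3 peak at ITGB2 was longer in every treatment than in DMSO. Covered bases were 25.9 kb in DMSO, 36.0 kb with MC_2580, 41.5 kb with RA at 0.01 µM, 41.9 kb with RA at 1 µM and 34.9 kb in the combination. The widest peak was 5474 bases in DMSO and 9832 with MC_2580. With RA at 0.01 µM it was 23315 bases (chr21:45155711-45179025), wider than 99.95% of the H3K4me3 peaks of its list. RA at 1 µM had 13132 bases (chr21:45157251-45170382), followed by an 8476-base peak after a short gap, and the combination had 12482 bases (chr21:45157409-45169890), followed by 1 of 8338 bases. In DMSO the same stretch held 4 separate H3K4me3 peaks. The folds in covered bases were 1.39 with MC_2580, 1.60 with RA at 0.01 µM, 1.62 at 1 µM RA and 1.35 in the combination. The whole lists gave 1.57, 1.50, 1.33 and 1.32 in that order. For MC_2580 the fold was 0.884 once divided by the whole-list ratio.

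H3K27ac at ITGB2 covered 42.9 kb in DMSO, 32.8 kb with MC_2580, 79.9 kb with RA at 0.01 µM, 55.0 kb with RA at 1 µM and 57.4 kb in the combination. RA at 0.01 µM was far above the rest here, and its H3K27ac list was the longest genome-wide, so that its fold of 1.86 became 1.19 when divided by the whole-list ratio. The widest peak was 8789 bases in DMSO, 8475 with MC_2580, 14771 with RA at 0.01 µM, 20976 at 1 µM RA (chr21:45147110-45168085) and 30573 in the combination (chr21:45149182-45179754). The last was wider than 99.78% of the H3K27ac peaks of its list. It spanned 3 H3K27ac peaks of DMSO and the 3 LSD1 sites at chr21:45163550-45166767, chr21:45171304-45173054 and chr21:45174704-45176797. Those LSD1 sites carried all 4 histone marks in all 5 conditions, and the last of them had a GFI1 peak, chr21:45175262-45176411.

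At CSF3R, H3K4me1 hardly differed between conditions. It covered 20.2 to 21.2 kb of its 50 kb window in the 5 conditions, and H3K4me2 6.82 kb in DMSO and 7.63 to 9.08 kb in the treatments. H3K4me3 covered 7.55 kb in DMSO, 10.6 kb with MC_2580, 13.4 kb with RA at 0.01 µM, 12.8 kb with RA at 1 µM and 10.9 kb in the combination. These were 1.41, 1.78, 1.70 and 1.44 times DMSO, against 1.57, 1.50, 1.33 and 1.32 for the whole lists. In the RA-containing libraries the difference sat mostly in 1 of the 2 highest-scoring H3K4me3 peaks, and divided by the whole-list ratio the fold of MC_2580, 1.41, was 0.893. At chr1:36719217-36721920 the width was 2704 bases in DMSO, 3161 with MC_2580, 5964 with RA at 0.01 µM, 6692 at 1 µM RA and 5461 in the combination, so the 3 RA-containing libraries stood above the other 2. At chr1:36700742-36703923 the widths were 3182, 3326, 3700, 3097 and 3264 bases in the same order, and the conditions hardly differed. The H3K4me2 peak at the former place, chr1:36719217-36721920, was 2428 bases wide in DMSO, 2319 with MC_2580 and 4559 to 4679 with RA in any form. At chr1:36700742-36703923, H3K4me2 was 2037 bases wide in DMSO and 1679 to 1928 in the treatments.

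**Figure D4:**
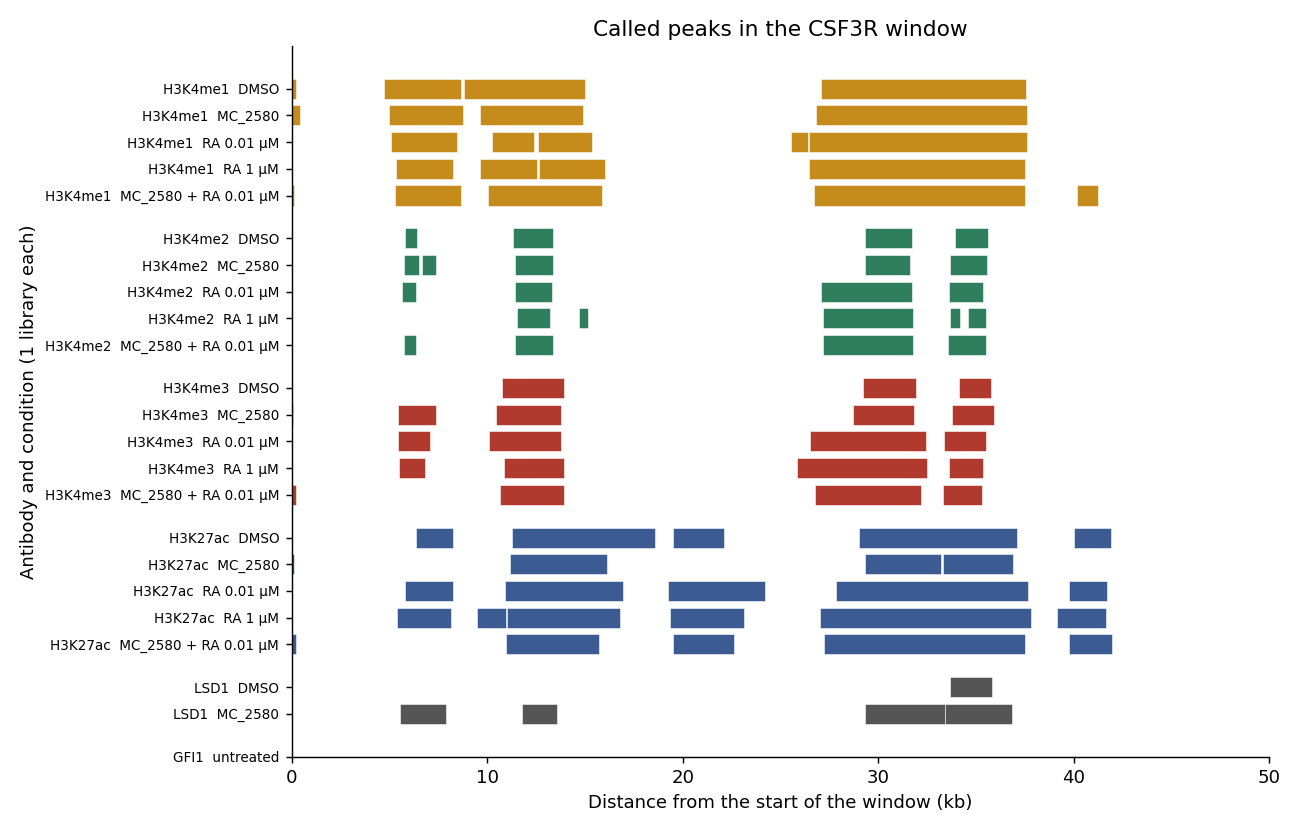
Called peaks of the 23 lists (rows, grouped by antibody) along the CSF3R window, with the distance from its start in kb on the x axis and each bar 1 peak, cut at the window's edges. The H3K4me3 bar near 29 kb is 5461 to 6692 bases long in the 3 RA-containing conditions and 2704 and 3161 bases in DMSO and MC_2580, and LSD1 has 1 bar in DMSO and 4 with MC_2580.

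H3K27ac at CSF3R covered 21.8 kb in DMSO, 12.5 kb with MC_2580, 25.2 kb with RA at 0.01 µM, 27.1 kb with RA at 1 µM and 20.6 kb in the combination. MC_2580 had the least, 0.576 times DMSO against 0.748 for its whole list. The combination did not exceed DMSO in this window (0.946 times). With the window widened by 20 kb, the combination had 1.41 times the DMSO bases, so its direction depended on the edges. LSD1 had 1 peak in DMSO, chr1:36723690-36725845, and 4 with MC_2580: chr1:36695555-36697892, chr1:36701764-36703567, chr1:36719324-36723420 and chr1:36723443-36726836. The LSD1 peaks covered 2.16 and 11.6 kb, or 5.40 times as much with MC_2580, against 1.92 times for the whole lists. At 1 minimum score for both lists the numbers were the same, 1 and 4. No GFI1 peak was called in this window. Divided by the whole-list ratio, the H3K27ac fold of RA at 0.01 µM, 1.16, was 0.741.

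**Figure D5:**
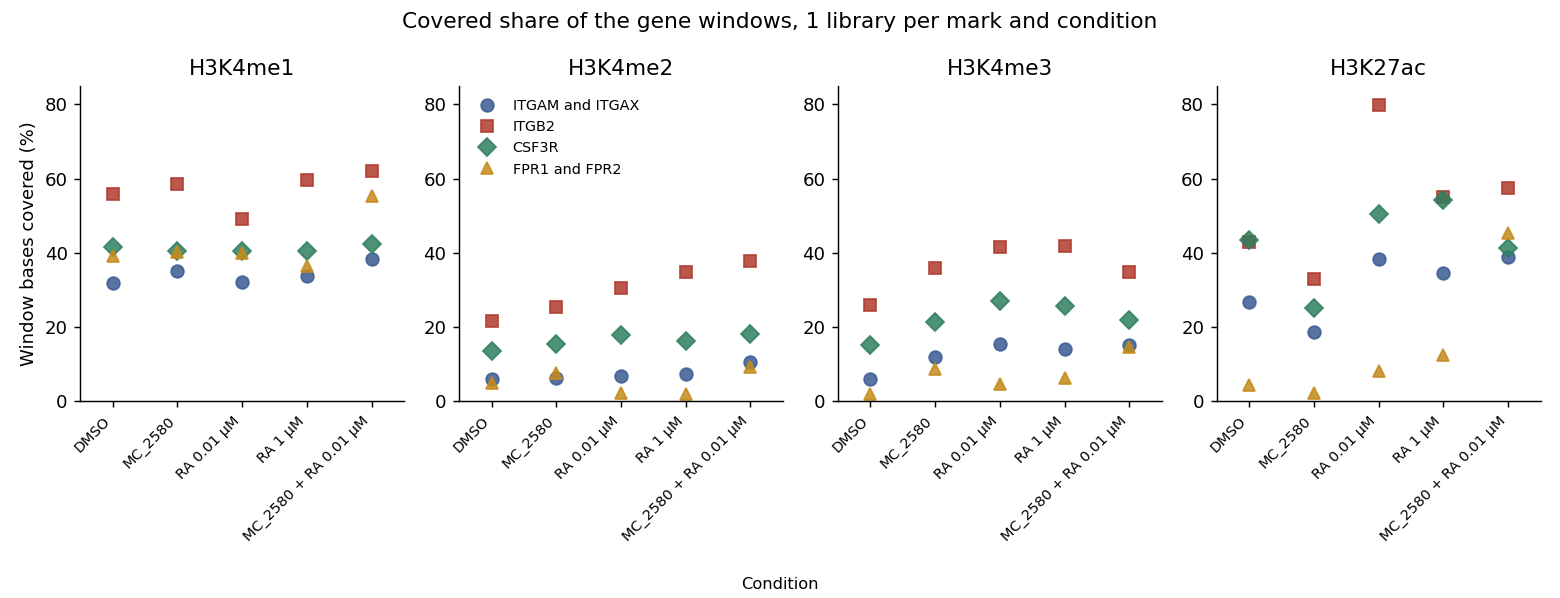
Share of each gene window covered by called peaks (y axis, percent) in the 5 conditions (x axis), 1 panel per mark and 1 point per window and library, with no error bars because each point is 1 library. FPR1 and FPR2 reach 45.2% in H3K27ac in the combination and stay at or below 12.3% elsewhere, and MC_2580 has the lowest H3K27ac point of every window.

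The 4 windows were then pooled, to ask whether peaks appeared or disappeared more often in them than in the lists as a whole. A peak of a treated list with no DMSO peak of the same antibody counts as gained, and a DMSO peak with no treated peak as lost. The intervals given with the shares are exact binomial (95%) and hold counting error alone. Peaks of 1 window neighbour each other and are not independent, so the intervals are narrower than the true uncertainty.

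H3K4me2 gains exceeded the background under RA at 1 µM and in the combination when every called peak was counted. Once neighbouring peaks were joined, the shares stayed above those of the whole lists, but their intervals included them. With RA at 1 µM, 25 of 49 H3K4me2 peaks were gained (51.0%, 36.3 to 65.6%), against 22.1% of the whole list, and in the combination 23 of 46 (50.0%, 34.9 to 65.1%), against 23.2%. MC_2580 gained 11 of 38 (28.9%, background 22.3%) and RA at 0.01 µM 8 of 34 (23.5%, background 14.3%), both with intervals that include the background. Of the gains, 17 of the 25 and 13 of the 23 came from the ITGB2 window. With peaks within 1 kb of each other joined, 7 of 24 (29.2%, 12.6 to 51.1%) were gained with RA at 1 µM and 8 of 27 (29.6%, 13.8 to 50.2%) in the combination. The whole lists treated in the same way gave 19.1% and 20.2%, which lie inside those intervals. Losses of H3K4me2 were 2, 3, 4 and 2 of 30 DMSO peaks in MC_2580, RA at 0.01 µM, RA at 1 µM and the combination, or 6.67, 10.0, 13.3 and 6.67%, against 11.0, 19.7, 19.5 and 14.4% of the whole list.

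H3K4me1 gains were 3 of 34 peaks with MC_2580 (8.82%, background 8.54%), 4 of 34 with RA at 0.01 µM (11.8%, background 11.7%), 4 of 35 with RA at 1 µM (11.4%, background 14.2%) and 11 of 39 in the combination (28.2%, background 21.9%). All of these lay near the share of the whole lists. Losses were 1, 3, 0 and 1 of 30 DMSO peaks in the same order, against 13.1, 19.5, 14.0 and 7.79% of the whole list. With RA at 1 µM the interval for 0 of 30 runs to 11.6%, below its background, and the intervals of the other 3 include theirs.

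H3K4me3 gains were also near the background, with 6 of 23 peaks with MC_2580 (26.1%, background 33.5%), 6 of 21 with RA at 0.01 µM (28.6%, background 29.2%), 7 of 22 with RA at 1 µM (31.8%, background 25.6%) and 6 of 22 in the combination (27.3%, background 26.6%). Losses were 1, 0, 1 and 1 of 18 DMSO peaks, against 2.20, 3.97, 6.12 and 6.29% of the list. The windows differed more from the lists in covered bases. Covered bases over the 4 windows were 1.61, 1.87, 1.84 and 1.79 times DMSO in the 4 treatments, against 1.57, 1.50, 1.33 and 1.32 for the whole lists, so with MC_2580 the windows moved as the list did.

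H3K27ac losses with MC_2580 were 17 of 34 DMSO peaks (50.0%, 32.4 to 67.6%), and 35.0% of the whole list was lost, a value inside that interval. RA at 0.01 µM lost 3 (8.82%, background 18.3%), RA at 1 µM 4 (11.8%, background 20.9%) and the combination 4 (11.8%, background 21.2%). Gains were 3 of 22 peaks with MC_2580 (13.6%, background 11.2%), 15 of 41 with RA at 0.01 µM (36.6%, 22.1 to 53.1%, background 53.9%), 8 of 32 with RA at 1 µM (25.0%, background 33.3%) and 15 of 39 in the combination (38.5%, background 37.1%). The gains with RA at 0.01 µM were thus below the background. Covered bases over the 4 windows were 0.694, 1.56, 1.32 and 1.52 times DMSO, against 0.748, 1.56, 1.12 and 1.17 for the whole lists. For RA at 0.01 µM the windows thus had the same ratio as the list. In single windows, H3K27ac was at least 2-fold higher than DMSO at FPR1 and FPR2 with RA at 1 µM and in the combination, a size that 21.5% and 24.9% of 100 kb stretches reached, and in no window with MC_2580 (4.45% of stretches) or RA at 0.01 µM (40.8%). It was at least 2-fold lower with MC_2580 at FPR1 and FPR2, as in 22.0% of stretches, but that value rests on peaks of 1.25 and 2.59 kb. Stretches covered in only 1 of the lists compared count in all these shares. The windows had H3K27ac in every list, so the shares are not a like background. The combination's fold at FPR1 and FPR2 was 10.5, and no share was made at that size.

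LSD1 had 17 peaks in the 4 windows in DMSO and 21 with MC_2580, which covered 32.3 and 55.1 kb, or 1.71 times against 1.92 for the whole lists. Of the 21, 7 were gained (33.3%, background 41.4%), and of the 17, 3 were lost (17.6%, background 7.79%). All 3 lost peaks scored under the lowest score of the MC_2580 list, as did other DMSO peaks that were called again. A cut at that score takes the 3 out of the count. With 1 minimum score for both lists, 0 of 8 were lost (4.24% of the whole list) and 13 of 21 gained (61.9%, against 63.0% of the whole list). The ITGAM and ITGAX window had 8 LSD1 peaks in each condition, that of ITGB2 4 and 5, that of CSF3R 1 and 4, and that of FPR1 and FPR2 4 in each. At the 14 sites called in both, the MC_2580 peak was wider in 13, with a median ratio of 1.33, and over the whole lists 90.7% of shared peaks were wider with a median ratio of 1.31. The LSD1 lists had different lowest scores, 234.04 in DMSO and 357 with MC_2580, and at 357 in both the DMSO number was 8 in place of 17, with 3 at ITGAM and ITGAX, 2 at ITGB2, 1 at CSF3R and 2 at FPR1 and FPR2. GFI1 had 8 peaks in the 4 windows, 3 at ITGAM and ITGAX, 2 at ITGB2, 0 at CSF3R and 3 at FPR1 and FPR2. Of the 8, 7 lay on an LSD1 peak of DMSO and 6 on 1 of MC_2580, against 30.0% and 37.7% of all GFI1 peaks. Read the other way, 7 of the 17 LSD1 peaks of DMSO and 7 of the 21 of MC_2580 lay on a GFI1 peak, against 56.8% and 44.7% of the whole lists. The shares in the windows were above the lists in the first direction and below them in the second. Both directions rest on few peaks, and no interval was made for them. The GFI1 peak that lay on no LSD1 peak of DMSO was chr21:45127690-45128399 in the ITGB2 window.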

How the data were processed

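ChIP-seq peak lists of 23 of the 25 samples were used, and the 2 input samples entered no comparison. Per the submitters' processing notes, the tools were MACS 1.4.1, Bowtie 1.0.1, FastQC (0.10.0 and 0.11.5), CASAVA 1.8 and bcl2fastq 2, on hg18, with no role or order named. Each deposited list gives position, name and score per peak; the score is the authors' value, on the scale of MACS's log10 of a p-value times a constant, and it piles up at 3100. The LSD1 lists lack part of the numbered peaks, so they had been filtered by a step not given in the sources used here. Every group had 1 library. Starts below 0 were set to 0.

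Peaks overlapping a window by at least 1 base were taken whole, and covered bases were counted inside the window. Genome-wide values used whole lists or 100 kb tiles with a peak in DMSO or the treated list. A tile covered in only 1 of these lists counted as at least 2-fold different. Python 3.11.15, NumPy 2.4.6, SciPy 1.17.1 and Matplotlib 3.10.9 were used, and the overlap code was tested on 20000 simulated peaks, in which all 1000 planted gains and 2000 planted losses were recovered. Named peaks followed a rule: LSD1 and GFI1 peaks, the highest-scoring H3K4me3 and widest histone peaks, and regions called in some conditions only. Other peaks named in the text were chosen after their values were seen. The members, lists and rules were chosen with earlier results of these data known. The alternatives were a minimum score of 100, windows widened by 20 kb, lists of equal length, all bases of every overlapping peak, division by the whole-list ratio, a 50% reciprocal overlap, joining within 1 kb and 1 minimum score for LSD1. The whole-list shares after joining, the LSD1 gains and losses at 1 minimum score and the combination ratios in wider windows were added after seeing the data. Other pathway genes were not counted, as gene positions on hg18 were not used here.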

Additional observations from a re-analysis of the deposited data

Results flagged for a closer look

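The effect of MC_2580 on H3K27ac in the FPR1 and FPR2 window pointed in opposite directions with and without RA at 0.01 µM. Covered bases went from 2588 to 1249 when MC_2580 was compared with DMSO (log2 fold -1.05) and from 4814 to 27099 when the combination was compared with RA at 0.01 µM (log2 fold 2.49), a difference of 3.54. With 1 library in each condition this difference was not tested. With the FPR1 and FPR2 window widened by 20 kb the fold of MC_2580 over DMSO was 1.16 in place of 0.483, and that of the combination over RA at 0.01 µM was 3.09, so the opposite directions did not hold there.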

How the results depend on the processing

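No paired analysis was possible because each antibody and condition had 1 library. Of 244 alternative values for the 4 windows together, 202 stayed within the interval, or within 1.5 times, of the reported value. The H3K27ac fold of RA at 0.01 µM (1.56) became 0.997, and the H3K4me3 fold of MC_2580 (1.61) became 1.02, when divided by the whole-list ratio. The other folds over the 4 windows moved by under 1.5 times under every alternative. Whole-list shares were made again only for joined peaks and for LSD1 at 1 minimum score. The other shares below have no background in their own setting. They cannot be set beside the whole-list shares given above. A 50% reciprocal overlap, which treats a widened peak as new, moved the most shares. Gains became 44.1 and 34.3% for H3K4me1 with RA at 0.01 and 1 µM, 41.2% for H3K4me2 with RA at 0.01 µM, 61.9, 63.6 and 63.6% for H3K4me3 with RA at 0.01 µM, RA at 1 µM and the combination, and 53.7, 43.8 and 61.5% for H3K27ac in the same order. Losses in that setting were 33.3, 23.3 and 23.3% for H3K4me1 in that order, 26.7, 33.3, 33.3 and 36.7% for H3K4me2 with MC_2580 first, 27.8, 55.6, 55.6 and 61.1% for H3K4me3 likewise, and 44.1, 47.1 and 55.9% for H3K27ac in the 3 RA-containing conditions. A minimum score of 100 gave gains of 3.23 and 0% for H3K4me1 with RA at 0.01 and 1 µM and of 52.6% for H3K4me3 with RA at 0.01 µM. It gave losses of 0% for H3K4me2 with MC_2580 and the combination and of 0% for H3K4me3 with RA at 1 µM and the combination. Lists of equal length gave gains of 10.0% for H3K4me1 in the combination, 11.5% for H3K4me2 with MC_2580 and 20.8% for H3K27ac with RA at 0.01 µM. Joining within 1 kb gave gains of 12.5% for H3K4me1 in the combination and, for H3K4me2, 12.5% with MC_2580, 29.2% with RA at 1 µM and 29.6% in the combination. The number of LSD1 peaks in DMSO was 8 with 1 minimum score for both LSD1 lists, where LSD1 gains were 61.9% and losses 0%. In single windows, the H3K27ac fold of MC_2580 at FPR1 and FPR2 turned from 0.483 to 1.16 with windows widened by 20 kb. The cause of the other shifts was not tested. Depth is unknown, so a peak that was not called may have been missed.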
